A study of Mus musculus with 95 samples.

Results

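The 3 small RNA features described here are the entries MI0001729, MI0000460 and MI0002470 of a deposited count table of 1881 features. They were chosen by identifier, as the entries given for mir-451a, mir-144 and mir-486-1, to serve as markers of blood left in dissected tissue, and the question was whether they follow genotype or the library's L number. The animals were heterozygous zQ175 knock-in (KI) mice, which carry an expanded CAG repeat in the huntingtin gene, and wild type (WT) littermates, all on C57BL6/J and all aged 6 months. The lines were CHDI-81003003, with its neo cassette intact, and CHDI-81003019, with the cassette deleted. Left striatum, left cortex and the left liver lobe of 32 mice gave 95 libraries, with 8 mice (4 of each sex) in each group of tissue, line and genotype apart from neo-deleted KI striatum, which had 7.

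miR-451a, miR-144 and miR-486 are among the abundant miRNAs of red blood cells and their precursors. The miR-144 and miR-451a hairpins lie next to each other and are transcribed together under the erythroid factor GATA1. The miR-451a hairpin is too short for Dicer and is cut by Argonaute 2, whereas miR-144 follows the usual Dicer route. In brain and liver, whole-tissue RNA also holds RNA of the blood in the vessels. In such bulk RNA, less blood in a sample and less of a miRNA per blood cell cannot be told apart.

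The mature sequences below, from RefSeq (GRCm38.p6), are what a small RNA read of these miRNAs would contain, with the seed (bases 2 to 8) in capitals. None of the 3 seeds is shared.
mmu-miR-144-5p: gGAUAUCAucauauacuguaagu
mmu-miR-144-3p: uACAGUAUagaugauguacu
mmu-miR-451a: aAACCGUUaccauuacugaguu

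The hairpins are shown because of their arrangement, with mature miRNAs in capitals. Mir144 lies at chr11:78073005-78073070 and Mir451a at chr11:78073170-78073241, both on the plus strand, with 99 bases between them. The mature miR-451a runs from the stem into the loop, whereas Mir144 gives 1 miRNA from each arm.
Mir144: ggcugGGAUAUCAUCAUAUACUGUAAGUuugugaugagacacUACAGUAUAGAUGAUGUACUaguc
Mir451a: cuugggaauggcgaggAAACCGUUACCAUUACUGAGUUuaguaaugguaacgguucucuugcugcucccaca
Of the 3 members, 2 matched RefSeq by name, and Mir486 is named only. The files give no sequence for their entries, and the ratio of counts to FPKM (the count scaled to the length of the feature and to the library's total) gave an entry length of 86 nt for MI0000460, against 66 nt for the RefSeq Mir144 hairpin. The printed sequences are therefore those of the mouse genes with these names and not a record of the entries counted. For MI0001729 the ratio gave a median of 72 nt (58.9 to 76.7), from counts of at most 0.016. The RefSeq Mir451a hairpin is 72 nt long, which does not show that it is the entry counted.

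Library totals ran from 74540 to 496035 counts (median 124029). Each library name carries a number after the letter L, whose meaning the labels do not give. Brain libraries with L number 8 (L8) were deeper than the rest, with a median total of 419439 in 26 libraries against 117174 in the other 69. The remaining libraries were L7 in striatum, L1 (and 1 L2 library) in cortex, and L1, L2 or L3 in liver. L number and genotype were unevenly mixed. In the neo-intact line, L8 held 5 of 8 KI and 1 of 8 WT striatal libraries, but 0 of 8 KI and 4 of 8 WT cortical libraries. The labelled tissues could not be checked against marker miRNAs, because none of the entries is paired with a name in the reference tables used here.

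The mir-451a entry held no whole read. MI0001729 was above 0 in all 95 libraries, but its highest estimated count was 0.016 and its sum over all libraries was 0.0908. No other of the 1881 features was above 0 in every library and under 0.5 in all of them. A count this low goes against the use of this row as a blood marker. In the 14 libraries where MI0001729 differed from a whole number by more than 0.001, exactly 1 other feature, MI0017360, brought the sum to a whole number (tolerance 0.002) and each of the 14 sums was within 0.0001 of one. In the other 81 libraries MI0001729 was itself within 0.001 of 0, so they say nothing about the partner. MI0017360 held 29963 counts in total, from 46 to 990 per library. The files and the reference tables give MI0017360 no name, so what it is was not tested.

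mir-486-1 showed the same arithmetic with more of the count left in its own row. MI0002470 was not whole in 30 libraries, and MI0023622 was the sole such feature whose sum with it was whole in those 30. MI0002470 held 5.71% of that pair's counts. The counts of MI0002470 came in steps of 17. Of the 84 libraries with at least 0.5 counts, 67 lay within 0.1 of a multiple of 17, the other 17 lay at most 3.13 above or below one, and the 11 remaining libraries were under 0.5. Libraries ran from 0 to 9 steps, with a median of 3. None of the 295 other features looked at showed a step of 3 or more.

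**Figure D1:**
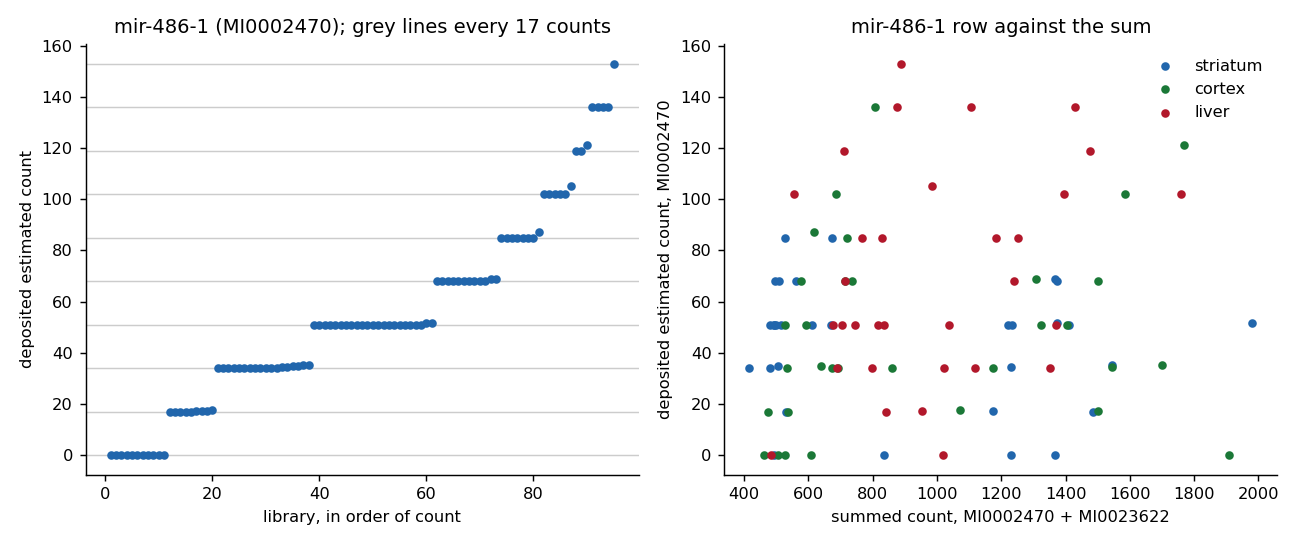
The mir-486-1 entry MI0002470. Left, deposited estimated count (vertical axis) of the 95 libraries in order of count, with a grey line every 17 counts. Right, the same count against the count summed with MI0023622, by tissue. The points sit on or near the lines, from 0 to 153 counts, while the sums ran from 416 to 1981 counts.

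Because whole reads belong to the pairs and not to their members, the summed pairs (MI0001729 with MI0017360, and MI0002470 with MI0023622) were analysed beside the entries as deposited. They are named by the entry that holds nearly all their counts, as the MI0017360 pair (with mir-451a) and the MI0023622 pair (with mir-486-1). MI0001729 made up 0.000303% of its pair, so every value of the MI0017360 pair is in effect the level of MI0017360, an entry with no name here, and is not a measured level of mir-451a. Pairs were found by their sums alone, after the data were seen and without use of groups. mir-144 needed no pair. MI0000460 was whole in every library, with 0 to 32 counts, 804 counts in all and a count in 90 of 95 libraries.

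mir-144, the mir-486-1 entry and both pairs had their highest mean CPM in liver. Levels are CPM, the count scaled to the library's total count. The MI0017360 pair stood at 5081 ± 2111 CPM in liver (SD, n = 32), 1289 ± 708 in cortex (n = 32) and 944 ± 562 in striatum (n = 31). Its rank by mean CPM was 25 of the 311 features with a count in liver, 78 of 374 in cortex and 98 of 373 in striatum. The MI0023622 pair stood at 9469 ± 2694 CPM in liver, 4330 ± 970 in cortex and 3904 ± 772 in striatum. The mir-486-1 entry as deposited stood at 691 ± 438 CPM in liver, 263 ± 256 in cortex and 270 ± 223 in striatum. Its mean counts were 70.2, 47.5 and 43.5, and the median library total was lowest in liver. mir-144 stood at 109 ± 56.9 CPM in liver, 27.5 ± 15.8 in cortex and 20.1 ± 12.5 in striatum. The lowest liver library had 47.4 CPM of mir-144 (6 counts), the highest cortical library 69.2 and the highest striatal library 39.998. Liver thus overlapped with cortex and not with striatum. A count of 3 is 24.2 CPM in the median library, so the gap to striatum is small beside counting error. The share of other features without overlap was not computed.

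Per length, the pairs and mir-144 kept one order in each tissue. Median FPKM in liver was 139005 for the MI0023622 pair, 76914 for the MI0017360 pair and 1080 for mir-144. In cortex these medians were 67406, 19069 and 300.2, and in striatum 62006.5, 9941 and 263. The mir-451a row itself had a median of 0.0477 FPKM in liver and less in both brain regions. It held no whole read, so this value is not a measured level of mir-451a and is not ranked against mir-144.

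The tissues were compared in WT mice with edgeR's quasi-likelihood test over all features, with sex, line and L number as terms. Each WT mouse gave every tissue, and this fit treats the libraries as independent. With the animal as a block instead, the liver differences of both pairs kept their sign and call. Here a difference with a Benjamini-Hochberg adjusted p under 0.05 is said to be called. The MI0017360 pair was 2.02 higher in liver than in cortex on the log2 scale (SE 0.30, adjusted p = 3.18e-08) and 2.92 higher than in striatum (SE 0.48, adjusted p = 4.16e-07). The MI0023622 pair was 1.32 higher than in cortex (SE 0.14, adjusted p = 8.74e-12) and 1.41 higher than in striatum (SE 0.22, adjusted p = 1.88e-07). For all features, 93.2% were called between liver and cortex and 88.9% between liver and striatum, so that a call is common here. The median log2 difference over all features was -1.36 and -1.42, and it moved to -1.62 and -1.67 when libraries were scaled by total counts alone. Relative to that median, the MI0017360 pair was 3.38 above cortex under both scalings. Liver and striatum shared no L number, so with the L number as a term their contrast is linked through cortex alone. Without that term the MI0017360 pair was 2.48 and the MI0023622 pair 1.55 higher in liver than in striatum.

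mir-144 did not pass the filter on low counts in either brain region or in the comparison of tissues. The mir-486-1 entry as deposited passed it, and was 1.53 higher in liver than in cortex (SE 0.58, adjusted p = 0.0131) and 3.07 higher than in striatum (SE 1.004, adjusted p = 0.00447), where 93.2% and 89% of features were called. In KI libraries these differences were 0.40 (adjusted p = 0.650) and 0.10 (adjusted p = 0.943), and the first also lost its call by limma voom (2.38) and on log2(FPKM + 1) (3.29). In WT libraries without the L number, the entry was 2.19 higher in liver than in cortex and 1.74 higher than in striatum. Without the filter, mir-144 was 2.59 higher in liver than in cortex (SE 0.40, adjusted p = 1.87e-07) and 3.21 higher than in striatum (SE 0.57, adjusted p = 3.15e-06), where 58.2% and 55.3% of features were called. Between the brain regions, the MI0017360 pair was 0.90 lower in striatum (log2 difference -0.90, SE 0.37, adjusted p = 0.0442), where 45.8% of features were called. Both regions come from the same WT mice, and with the animal as a block the difference was -0.92 and no longer called (adjusted p = 0.0930). Without the L number it was -0.23 (adjusted p = 0.552), in KI libraries it was -0.23 (adjusted p = 0.544), and leaving out each WT animal in turn gave -1.06 to -0.63, with the call lost for 10 of 16 animals. The mir-486-1 entry differed by -1.54 (SE 0.81, adjusted p = 0.126), the MI0023622 pair by -0.09 (SE 0.17) and mir-144 by -0.63 (SE 0.40, adjusted p = 0.331) between the brain regions.

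**Figure D2:**
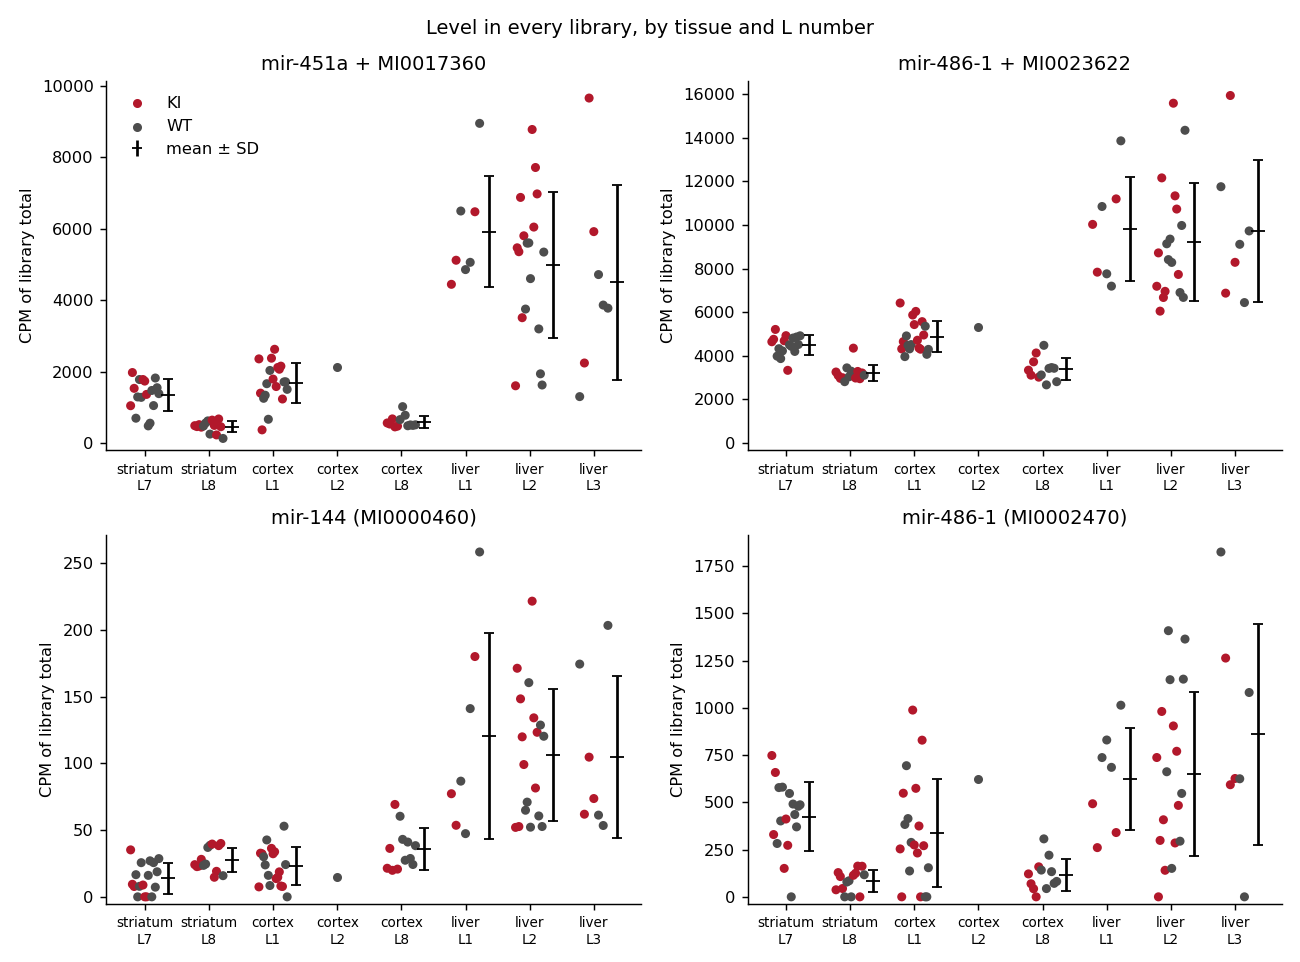
Level in every library by tissue and L number, in CPM of the library's total, for the MI0017360 pair, the MI0023622 pair, mir-144 and the mir-486-1 entry as deposited. Points are libraries (KI red, WT grey) and bars are mean ± SD. Mean levels are highest in liver in all panels, and the L8 libraries of striatum and cortex mostly lie below the other brain libraries for both pairs but not for mir-144.

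Within each brain region the CPM of both pairs followed the L number, and with it the depth of the library. The mean count of the MI0017360 pair was 158 in L7 and 193 in L8 striatum, and 214 in L1 and 259 in L8 cortex. The part of depth in the differences below was not tested. In striatum the MI0017360 pair had 483 to 1975 CPM in the 17 L7 libraries (median 1385) and 131 to 676 in the 14 L8 libraries (median 483). None of the L8 libraries exceeded the L7 median, and 15 of 17 L7 libraries were above every L8 library. With line, genotype and sex in the fit, the difference was -2.07 on the log2 scale (SE 0.22, adjusted p = 1.35e-09). In cortex the pair had 371 to 2625 CPM in the 19 L1 libraries (median 1712) and 454 to 1021 in the 12 L8 libraries (median 524). The difference was -1.64 (SE 0.22, adjusted p = 1.68e-07), and 17 of 19 L1 libraries were above every L8 library. The lone L2 cortical library had 2118 CPM. In fits with the L number it has a term of its own and so adds nothing to a cortical contrast below. It does enter the fits without the L number and the range and median of its group.

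The MI0023622 pair moved the same way by less. It had 3335 to 5209 CPM in L7 striatum (median 4519) and 2814 to 4352 in L8 striatum (median 3105), a difference of -0.76 (SE 0.07, adjusted p = 3.48e-11). In L1 cortex it had 3964 to 6421 CPM (median 4652) and in L8 cortex 2669 to 4481 (median 3383), a difference of -0.86 (SE 0.10, adjusted p = 1.42e-08). Of the L8 libraries, 12 of 14 in striatum and 10 of 12 in cortex were below every other library of their region with L7 or L1. These contrasts changed most of the table. With pairs summed, 84.5% of features were called between L8 and L7 in striatum, and 68.1% between L8 and L1 in cortex.

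The size of these differences depends on the scaling. Scaled by total counts alone, the median over all features moved from 0.17 to 0.46 in striatum and from 0.08 to 0.41 in cortex, and the share of called features that were higher in L8 moved from 55.7% to 67.1% and from 53.2% to 69.6%. The MI0017360 pair was then at -1.77 and -1.31, and the MI0023622 pair at -0.47 and -0.53. Relative to the median of all features the MI0017360 pair stood at -2.24 in striatum under trimmed-mean scaling and -2.23 under total counts, and the MI0023622 pair at -0.93 under both. In cortex the pairs stood at -1.72 and -0.94 under both scalings.

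The ratio of the pairs also differed by L number. Counts of the MI0017360 pair per count of the MI0023622 pair were 0.300 ± 0.0995 in L7 striatum (SD, n = 17) and 0.145 ± 0.0510 in L8 striatum (n = 14). In cortex the ratio was 0.344 ± 0.104 in L1 (n = 19) and 0.178 ± 0.0478 in L8 (n = 12). Of the L7 libraries, 13 of 17 were above every L8 library of striatum, and of the L1 libraries 15 of 19 were above every L8 library of cortex. Liver libraries stood at 0.543 ± 0.190 (n = 32). This ratio does not depend on the scaling of a library.

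mir-144 was not lower in the L8 libraries, unlike the MI0017360 pair. Striatal libraries held 0 to 4 counts in L7 and 6 to 18 in L8. As a level this was 13.8 ± 11.4 CPM in L7 (SD, n = 17) and 27.8 ± 9.11 in L8 (n = 14), and 14 of 14 L8 libraries were above the L7 median. Cortical libraries held 0 to 7 counts in L1 and 8 to 32 in L8, which was 22.9 ± 14.04 CPM (n = 19) and 35.9 ± 15.8 (n = 12). Permuting L8 and L7 within groups on log2(CPM + 1) gave a difference of 1.95 in striatum (two-sided permutation test, p = 0.0013), and L8 against L1 in the 3 cortical groups that hold both gave 1.002 (permutation p = 0.0497). For the MI0017360 pair the same tests gave -1.79 (permutation p = 1e-05, the smallest that 100000 resamples can give) and -1.12 (p = 0.0005 by permutation). In edgeR without the filter, mir-144 differed by 0.71 in striatum (SE 0.38, adjusted p = 0.126) and 0.19 in cortex (SE 0.35, adjusted p = 0.722), neither of which was called, and 49.7% and 37.2% of features were. The permuted levels were scaled to total counts, under which the median over all features was 0.46 higher in L8 striatum and 0.41 in L8 cortex. mir-144 had no count in 4 of 17 L7 and 1 of 19 L1 libraries, and in 0 L8 libraries. A zero lies far below 1 count on log2(CPM + 1), which widens the permuted differences, and no permutation was run on another scaling.

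Set against the MI0017360 pair, there was more mir-144 in L8. Per 100 counts of the MI0017360 pair there were 1.41 ± 1.47 counts of mir-144 in L7 striatum (SD, n = 17) and 6.78 ± 3.33 in L8 striatum (n = 14). In cortex the values were 1.76 ± 1.90 in L1 (n = 19) and 6.37 ± 3.44 in L8 (n = 12), and in liver 2.61 ± 2.34 over all L numbers (n = 32). Depth moved with the L number, and its part in these differences was not tested.

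The mir-486-1 entry as deposited was lower in L8 striatum, with 82.8 ± 57.7 CPM (n = 14) against 425 ± 184 in L7 (n = 17), a difference of -2.74 (SE 0.44, adjusted p = 1.48e-06), where 84.6% of features were called. In cortex it was 116 ± 85.01 CPM in L8 (n = 12) and 338 ± 285 in L1 (n = 19), a difference of -1.37 (SE 0.62, adjusted p = 0.0522) that was not called, where 70.4% of features were, and limma on log2(FPKM + 1) gave the opposite sign (0.99). The mean count of the entry was 50.06 in L7 and 35.49 in L8 striatum, and 43.99 in L1 and 50.02 in L8 cortex. Library totals were larger in L8, and the part of depth in these CPM differences was not tested. Permuting L numbers within groups on log2(CPM + 1) gave -3.29 in striatum (permutation p = 0.00277) and 0.71 in cortex (permutation p = 0.579). Counts in steps of 17 vary more than a count model assumes for single reads. In liver, none of the 8 differences between L2 or L3 and L1 was called for the pairs or entries, where 1.54% and 3.08% of features were with pairs summed, and 0% and 2.29% as deposited.

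**Figure D3:**
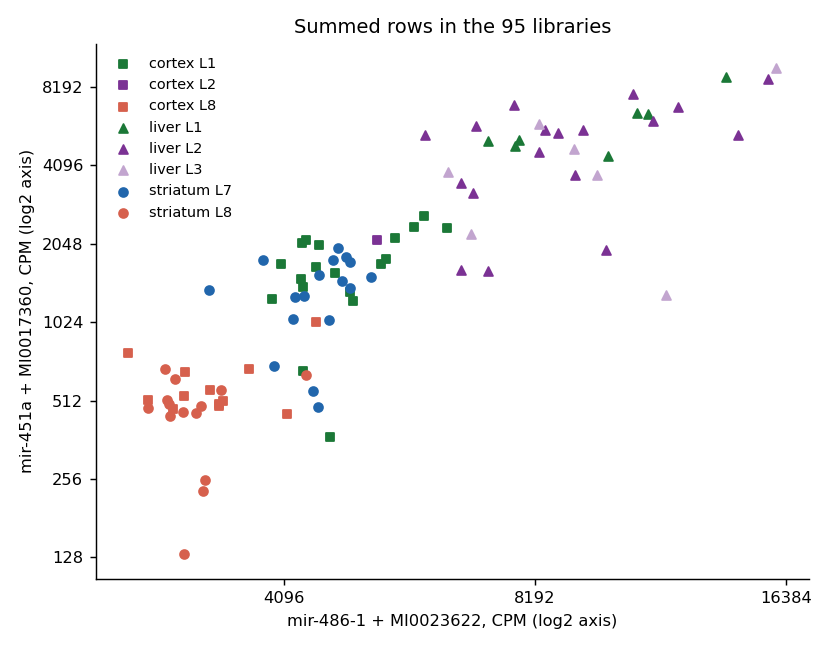
The MI0017360 pair (vertical axis) against the MI0023622 pair (horizontal axis) in all 95 libraries, both in CPM on log2 axes, with tissue as marker shape and L number as colour. Most liver libraries lie at the upper right, with 5 of them within the brain range of the vertical axis, most L8 libraries of striatum and cortex at the lower left, and most L7 and L1 brain libraries between them.

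No difference between KI and WT mice was called for any member or pair in the main tests of any tissue or line. In striatum of the neo-intact line the MI0017360 pair had 131 to 1822 CPM in WT (median 1217, n = 8) and 229 to 1779 in KI (median 660, n = 8), with the groups overlapping over nearly their whole range. With the L number in the fit, KI minus WT was 0.71 (SE 0.29, adjusted p = 0.104), and without it the sign turned to -0.28 (SE 0.53, adjusted p = 0.688, with 11.8% of features called). In this comparison 15.5% of all features were called, of which 48.3% were higher in KI, and this share was 64.3% with DESeq2's size factors and 31.2% with total counts alone. DESeq2 called the pair with the L number (0.76, adjusted p = 0.0492, with 16.6% of features called), as did edgeR with the replicate number as a block (0.95, adjusted p = 0.0275, with 13.9% called). Within L7 the 3 KI libraries had 1626 ± 229 CPM and the 7 WT libraries 1189 ± 511. Within L8 the 5 KI libraries had 501 ± 178 CPM and the single WT library had 131. In the neo-deleted line the difference was 0.21 (SE 0.27, adjusted p = 0.606), and 0.14 without the L number (SE 0.55, adjusted p = 0.987), with 15.5% and 5.35% of features called.

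In cortex of the neo-intact line the MI0017360 pair had 1235 to 2625 CPM in KI (median 2092, n = 8) and 485.999 to 2118 in WT (median 1009, n = 8). All 8 KI libraries were L1, and 4 of the 8 WT libraries were L8, with 485.999 to 513 CPM. KI minus WT was 0.98 without the L number (SE 0.45, adjusted p = 0.112) and 0.58 with it (SE 0.28, adjusted p = 0.475). Within L1 the 8 KI libraries had 1993 ± 444 CPM and the 3 WT libraries 1644 ± 121, a difference of 0.25 in mean log2(CPM + 1). In the neo-deleted line the difference was -0.32 (SE 0.25, adjusted p = 0.740). Of 185 features, 0% were called by edgeR in either line, 16 and 17 had an unadjusted p under 0.05, and DESeq2 called none.

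In liver of the neo-intact line the MI0017360 pair had 2241 to 9653 CPM in KI (median 6722, n = 8) and 1626 to 8945 in WT (median 3819, n = 8). KI minus WT was 0.86 with the L number (SE 0.30, adjusted p = 0.303) and 0.82 without it (SE 0.30, adjusted p = 0.435). Within L2 the 4 KI libraries had 6044 to 8773 CPM and the 4 WT libraries 1626 to 5344. Within L3 the 3 KI libraries (2241 to 9653) spanned the 3 WT libraries (3775 to 4715), and within L1 the single KI library (6472) was below the single WT library (8945). In the neo-deleted line the difference was 0.08 (SE 0.29, adjusted p = 0.995). Over 130 features 0% were called by edgeR in either line, with 13 and 4 at an unadjusted p under 0.05, and DESeq2 called none. Without the filter on low counts, edgeR called the neo-intact difference (0.85, SE 0.13, adjusted p = 5.79e-09, with 2.26% of features called) against an SE of 0.30 with the filter.

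An exact test that permuted KI and WT within L number, on log2(CPM + 1), was run for each of 4 quantities in 6 combinations of tissue and line. For the MI0017360 pair in the neo-intact line it gave 0.94 in striatum (two-sided exact p = 0.0347), 0.25 in cortex (exact p = 0.279) and 0.77 in liver (exact p = 0.0514). In striatum the L8 stratum holds a single WT library, the lowest of all 95, and within L7 alone the difference was 0.59 (exact p = 0.2). In liver, without the L1 stratum of 1 library per genotype, it was 0.95 (exact p = 0.0343). The stratum left out went the other way (-0.47). Tests that leave out a stratum are not among the 24 counted below. In the neo-deleted line the exact p was 0.469, 0.232 and 0.642. Of all 24 tests, 2 had an unadjusted exact p under 0.05, the other being the deposited mir-486-1 entry in neo-intact cortex (exact p = 0.0242), where 2 of the 3 WT and 1 of the 8 KI libraries of L1 were near 0.

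**Figure D4:**
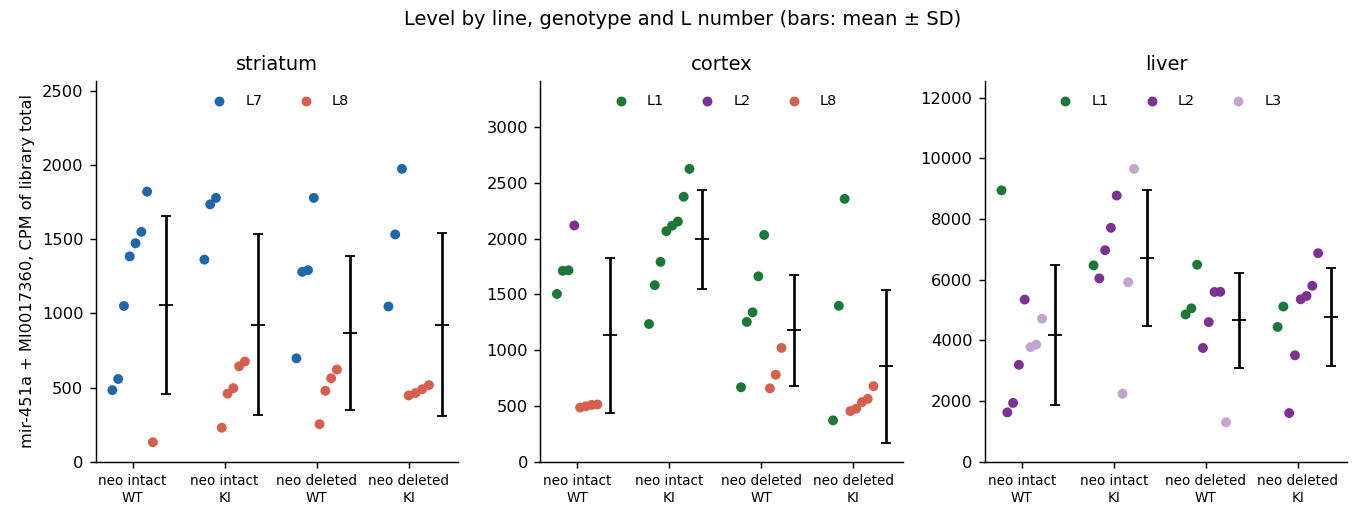
The MI0017360 pair in CPM of the library's total (vertical axes, scaled per tissue) by line and genotype, with points coloured by L number and bars for mean ± SD. In striatum and cortex most L8 points lie below the other points of their group, with overlap in the neo-deleted cortex, and the neo-intact cortex holds no KI library of L8.

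The MI0023622 pair was between 3625 and 4420 CPM on average in the 4 striatal groups, and its KI minus WT difference was 0.05 in the neo-intact line (SE 0.09) and 0.16 in the neo-deleted line (SE 0.09, adjusted p = 0.201). In cortex these differences were 0.23 (SE 0.13) and 0.11 (SE 0.11). In liver they were 0.27 (SE 0.19) and -0.18 (SE 0.20). In neo-intact striatum its interval of 2 SE ran from -0.13 to 0.23, against 0.13 to 1.3 for the MI0017360 pair.

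mir-144 was tested in liver, where it passed the filter. KI mice had 123 ± 55.2 CPM and WT mice 117 ± 77.5 in the neo-intact line (SD, n = 8 each), and 96.8 ± 46.2 and 99.8 ± 50.98 in the neo-deleted line. The differences were 0.18 (SE 0.36) and -0.01 (SE 0.39), with adjusted p of 0.900 and 0.988 by edgeR. In the brain, without the filter, they were between -0.18 and 0.05 with SE from 0.37 to 0.52.

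The deposited mir-486-1 entry gave KI minus WT differences from -1.11 to 1.42 over the 6 comparisons, with none called and SE from 0.54 to 0.82. In neo-deleted liver it was -1.11 (SE 0.57, adjusted p = 0.988), which edgeR without the filter called (SE 0.19, adjusted p = 1.06e-06, with 1.61% of features called). The difference between the lines' KI effects was not called for any member or pair with the filter, where 0.532% of features were called in striatum (0.535% with pairs summed) and 0% in cortex and liver. For the MI0017360 pair, neo-deleted minus neo-intact was -0.50 in striatum (SE 0.39), -0.90 in cortex (SE 0.38, adjusted p = 0.393) and -0.78 in liver (SE 0.41, adjusted p = 0.625). None of 10 differences between males and females was called, where 0% of features were in striatum and cortex and 15.3% in liver (16.2% with pairs summed).

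**Figure D5:**
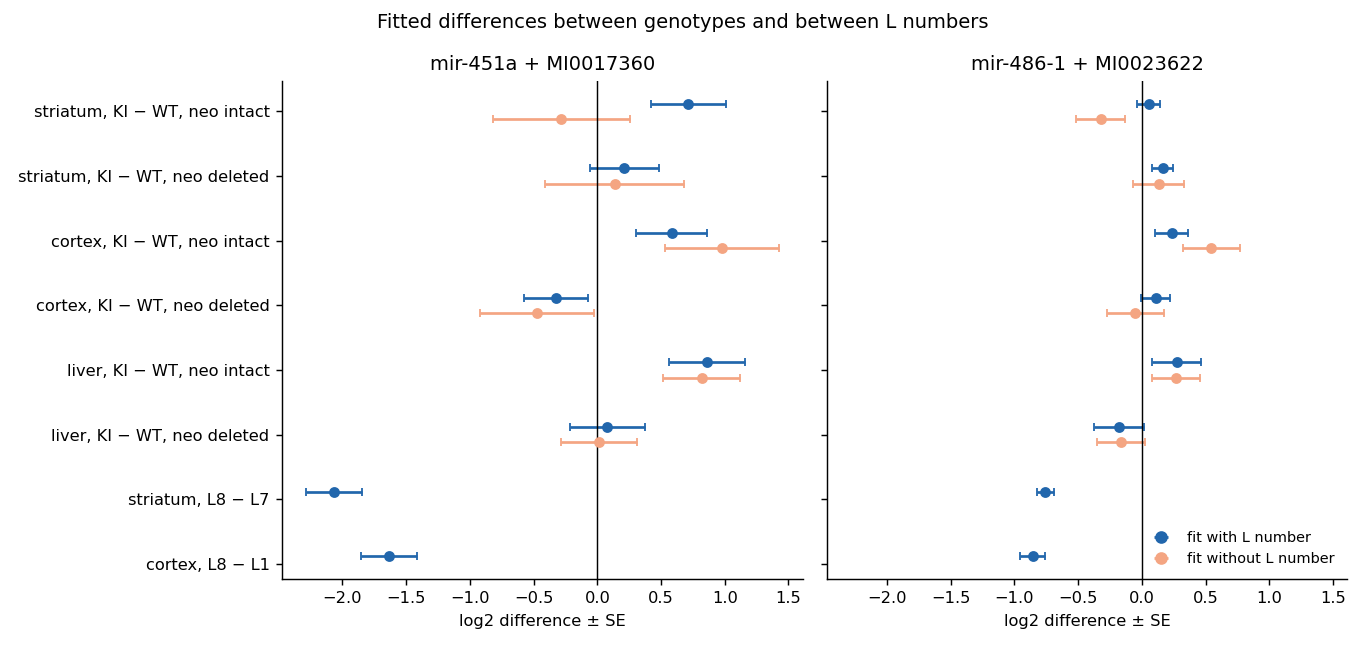
Log2 differences with SE (horizontal axis) for the MI0017360 pair (left) and the MI0023622 pair (right): KI minus WT by tissue and line, with the L number in the fit (blue) and without it (orange), and L8 minus L7 or L1. The L8 differences lie furthest from 0, and the striatal neo-intact difference of both pairs changes sign with the L number.

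The pairs and mir-144 were compared across libraries within a tissue and L number. Of 28 relations none was called after Benjamini-Hochberg adjustment. The lowest p was that of mir-144 with the MI0023622 pair in the 18 liver libraries of L2 (Pearson's r = 0.64, permutation p = 0.00464, adjusted p = 0.130; Spearman's rho = 0.65, adjusted p = 0.125), and without the 2 libraries farthest from the median r was 0.64. For the pairs, Pearson's r ran from 0.08 to 0.81 over 7 combinations and Spearman's rho from -0.16 to 0.71, with rho above 0 in 5 of 7, and r without the 2 farthest libraries from -0.07 to 0.59. For the MI0017360 pair with mir-144, r ran from -0.38 to 0.76 and rho from -0.47 to 0.68. Between tissues of the same mouse, 24 relations of a member with itself were computed and none was called (lowest adjusted permutation p = 0.513).

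Spread was ranked over features of all levels from 100 CPM up. After removing the mean of tissue and L number, the SD of log2(CPM + 1) of the MI0017360 pair was 0.65. This was rank 13 of 103 features with a mean of at least 100 CPM, whose median SD was 0.29. The MI0023622 pair had an SD of 0.27, rank 58. On the same residuals over 95 libraries, the features most like the MI0017360 pair were MI0000749 (Pearson's r = 0.38), the MI0023622 pair (r = 0.34, rank 2 of 104 features) and MI0000472 (r = 0.29), and mir-144 had r = -0.03. With only the tissue mean removed, r was 0.73 for MI0000749 and 0.62 for the MI0023622 pair, which then ranked 11. Libraries share their depth and L number, so these values describe likeness in this table only.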

How the data were processed

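Small RNA was sequenced in striatum, cortex and liver of KI and WT mice. CASAVA 1.8.2 and the build mm10 are named, per the submitters' processing notes, while the aligner, counter and feature reference are not given in the sources used here. The deposited estimated counts per feature were not scaled for library size by the authors. The deposited FPKM values equal the count over feature length and library total, and were used for lengths, levels between members and an alternative test. Counts were rounded and fitted per tissue in edgeR 4.0.16 (R 4.3.3, limma 3.58.1) with trimmed-mean scaling, filterByExpr (minimum count 10, minimum total 15), group, sex and L number, and with Benjamini-Hochberg adjustment over all features at 0.05. SE is that of the quasi-likelihood test. For the pairs, the whole table was refitted with each pair as 1 feature. mir-451a as deposited passed no filter and has no test, and mir-144 passed it in liver alone. Permutations used numpy 2.4.6. Fits were tested on simulated data. DESeq2 1.42.0, limma, other scalings and filters, single L numbers, the block of replicate numbers and left-out libraries were alternatives.

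Members, lists and the L number term were chosen with earlier results of these data known, and the summed pairs, permutation tests and spread ranks were added after seeing the values. The rule for features named besides the members was the highest likeness to MI0001729. It could not be applied to a row without counts, so the pair was used, and the 2 nearest single features are named. Lists by miRNA name could not be applied, since no entry is paired with a name here. KI and WT mice are separate animals. No library pair was identical. A library's total limits precision: a count of 3 corresponds to 6.05 to 40.2 CPM in a single library (median 24.2), and to 0.158 CPM over all libraries together. These floors cover counting error only, since PCR copies were not marked by molecular identifiers.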

Additional observations from a re-analysis of the deposited data

Results flagged for a closer look

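Of 48 combinations of 12 groups and 4 quantities, 4 held a library whose gap to its nearest neighbour exceeded Dixon's 95% critical value for its group, and chance flags about 5 in 100. In neo-deleted KI cortex, male 1 (L8) had 69.2 CPM of mir-144 (32 counts), against 7.46 to 36.3 in the other 7 libraries. In the same group, male 3 (L1) had 548 CPM of the deposited mir-486-1 entry, against at most 254. In neo-intact WT cortex, male 1, the lone L2 library of cortex, had 625.2 CPM of that entry, against at most 220. In neo-intact WT striatum, male 3 had 3110 CPM of the MI0023622 pair, against 4201 to 4917 in the other 7, and it was the single L8 library of that group, where it also had the lowest MI0017360 pair of all 95 libraries (131 CPM).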

How the results depend on the processing

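Both pairs stayed lower in L8 in each alternative and with each library left out in turn (MI0017360 pair -2.13 to -1.93 in striatum and -1.74 to -1.41 in cortex; MI0023622 pair -0.83 to -0.69 and -0.90 to -0.78), and both stayed higher in liver. The other differences below changed their call or sign, and where no construction of the alternative shows it, the cause was not tested.

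For the MI0017360 pair, striatum minus cortex lost its call without the L number (-0.23), with total counts alone (-0.87), without the filter (-0.91), on log2(FPKM + 0.1) (-1.04), with the animal as a block (-0.92) and in KI libraries (-0.23). Leaving out 1 WT animal gave -1.06 to -0.63. Its KI minus WT difference in neo-intact striatum was called by DESeq2 (0.76) and with the replicate block (0.95), and was -0.28 without the L number. In neo-intact liver it was called without the filter (0.85), as was the difference between lines in liver (-0.73). Its line difference in striatum was 0.42 without the L number. In the neo-deleted line its KI minus WT difference was 0.038 in cortex within L1, -0.0033 in striatum within L8, and in liver -0.27 within L1, -0.020 within L2 and -0.025 with the 2 groups compared alone (-0.042 to 0.21 leaving out 1 library), none of them called.

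For the MI0023622 pair, KI minus WT in neo-intact striatum was -0.32 without the L number, -0.016 with total counts and -0.033 on log2(FPKM + 1) and log2(FPKM + 0.1). In the neo-deleted line it was -0.024 in striatum within L8 and -0.051 in cortex without the L number. The line difference in cortex was 0.0055 without the filter and -0.25 to 0.12 leaving out 1 library, and striatum minus cortex was -0.15 to 0.099 leaving out 1 animal.

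For mir-144 in liver, the line difference was 0.10 by voom (-0.50 to 0.022 leaving out 1 library). KI minus WT was 0.0012 with total counts, 0.18 by voom and 0.22 within L2 in the neo-deleted line (-0.21 to 0.19 leaving out 1 library), and -0.25 within L3 in the neo-intact line.

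For the mir-486-1 entry, L8 minus L1 in cortex was called with DESeq2's size factors (-1.44) and without the filter (-1.47), was 0.99 on log2(FPKM + 1) and 1.66 on log2(FPKM + 0.1), and ran from -1.63 to -0.93 leaving out 1 library. Liver minus cortex lost its call by voom (2.38), on log2(FPKM + 1) (3.29), on log2(FPKM + 0.1) (3.90) and in KI libraries (0.40), as did liver minus striatum in KI libraries (0.10). Striatum minus cortex was 0.46 without the L number, 0.30 in KI libraries and -2.21 to -0.90 leaving out 1 animal. KI minus WT in neo-intact striatum was -1.16 without the L number, -0.38 within L7 and -0.29 with the 2 groups alone. In neo-intact liver it was 0.37 by voom, 1.29 and 1.71 on the FPKM scales, 0.78 within L3 and 0.0091 with the 2 groups alone. Without the filter, its neo-deleted liver difference (-1.11) and its line difference in liver (-0.94) were called.

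Of 10 sex differences 0 were called, and 2 of 12 without the filter, both in liver, where 6.43% of features were called (5.48% with pairs summed) and 0% in brain. Of 8 differences between L numbers in liver 0 were called, and 2 of 8 without the filter, where 4.52% (L2) and 3.87% (L3) of features were called with pairs summed. After the fit, the residuals of same-numbered KI and WT libraries correlated at -0.415 to 0.545. Whether this differs from other pairs of libraries was not tested, and the main fits did not pair them. A count of 3 is 24.2 CPM in the median library, near the level of mir-144 in brain.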
